A study of Mus musculus with 12 samples.

Results

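The 10 genes described here encode enzymes that build the neutral lipids of the cell: triglycerides, sterol esters and wax esters. They are Gpam, Agpat2, Agpat3, Lpin1, Lpin2, Dgat1, Dgat2, Soat1, Soat2 and Awat1, chosen by name for their place in these pathways out of the 26855 genes with counts. The choice was made with earlier results of these data known. All 10 had counts and all 10 passed the filter on low counts. They were measured in 12 libraries of alveolar macrophages, the phagocytes of the lung's air spaces, taken from mouse bronchoalveolar lavage 14 days after they were given bleomycin, which damages lung tissue and serves as a model of pulmonary fibrosis. A size filter had first divided the cells into a fraction enriched for the border-associated kind of alveolar macrophage and a fraction with few of them. They were then sorted by side scatter, a measure of granularity, and by BODIPY, a dye for neutral lipid, and full-length cDNA was made from their polyadenylated RNA with the SMART-Seq method. The 3 groups are titled UPBIG, UPSMALL and DOWN, with 4 libraries each, and the titles serve as names because the labels do not tie them to a fraction or a gate. All 3 groups share the bleomycin treatment, and no untreated group was analysed here. The sources used here do not give strain, sex, age, the number of mice, the number of cells per library or any pooling. P-values therefore measure the spread between these libraries, and that spread may be technical.

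Triglyceride is made in steps. Glycerol-3-phosphate acyltransferases such as Gpam attach a first fatty acid to the glycerol backbone, lysophosphatidate acyltransferases such as Agpat2 and Agpat3 attach the next one to give phosphatidate, and the lipins Lpin1 and Lpin2 remove the phosphate to give diacylglycerol. Dgat1 and Dgat2 add the last fatty acid. Soat1 and Soat2 join a fatty acid to cholesterol, the reaction by which macrophages turn into lipid-filled foam cells, and Awat1 joins one to a long-chain alcohol to give a wax ester. The products are stored in lipid droplets, which is where BODIPY collects. Transcript levels do not measure these enzymes' activity or the lipid content of the cells.

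The libraries held between 17109669 and 23282621 expected read counts each. All 14 alveolar macrophage markers on a fixed list had counts in each group, and their summed level was 122177 to 127230 CPM (counts scaled to the same library total) in UPBIG, 61774 to 121553 in UPSMALL and 79551 to 113097 in DOWN, most of it the lysozyme gene Lyz2. By mean CPM 12 of the 14 were higher in UPBIG than in DOWN, such as the surface marker Siglecf at 42.8 CPM in UPBIG, 28.9 in UPSMALL and 18.1 in DOWN, and 2 were lower, Mrc1 at 327, 398 and 372 CPM and Car4 at 17.9, 127 and 88.1 CPM. Lists for other cells moved between the groups. The 10 dendritic cell markers summed to 3.24 to 6.27 CPM in UPBIG, 5.60 to 17.0 in UPSMALL and 43.2 to 86.9 in DOWN; Siglech had no count in UPSMALL, and every marker on the list had a count in the other 2 groups. The 5 monocyte markers, all with counts in every group, summed to 15.8 to 27.7 CPM, 66.4 to 120 CPM and 228 to 277 CPM in the same order. The 10 T and NK cell markers summed to 85.5 to 142, 35.5 to 75.4 and 70.6 to 180 CPM, with Ncr1 at 0 in UPBIG and UPSMALL. Cd2 carried most of the T and NK sum in UPBIG, at a mean of 96.5 CPM against 52.8 in DOWN, and Cd4 was also higher in UPBIG, whereas the other 8 markers were lower, such as Nkg7 at 1.40 against 21.2 CPM and Cd3g at 0.335 against 12.0 CPM. The 5 B cell markers summed to 0.750 to 8.29, 1.75 to 6.85 and 0.0433 to 17.5 CPM. The 5 neutrophil markers in the table summed to 388 to 431, 186 to 238 and 156 to 198 CPM, most of it S100a8. S100a8 and Cxcr2 were higher in UPBIG than in DOWN by mean CPM, and S100a9, Csf3r and Mmp8 were lower. The 10 alveolar type 2 and airway markers summed to 26.1 to 235, 27.6 to 53.7 and 23.3 to 37.4 CPM, with overlapping groups; 7 were higher and 3 lower in UPBIG than in DOWN, and Lamp3 was at 0 in UPSMALL and Sftpb in DOWN. Levels below are CPM on library totals scaled by edgeR's TMM factors, which ran from 0.8577 to 0.8963 in UPBIG, 0.9917 to 1.171 in UPSMALL and 1.029 to 1.162 in DOWN. The mean of a group is given with its SD over 4 libraries.

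Between UPBIG and DOWN, 6 of the 10 genes passed the test. Awat1 rose 10.8-fold, Agpat3 2.38-fold, Soat1 1.42-fold and Lpin1 1.37-fold in UPBIG, while Soat2 and Agpat2 fell, Soat2 from a very low level. Gpam, Lpin2, Dgat1 and Dgat2 did not pass. The test was edgeR's quasi-likelihood test with Benjamini-Hochberg adjusted p under 0.05 over all 12625 genes tested, of which 17.5 percent passed in this comparison, 9.03 percent higher and 8.48 percent lower in UPBIG. With plain library totals in place of TMM scaling, 518 genes passed as higher and 3237 as lower, against 1140 and 1070. The median log2 fold change of the 10 genes was 0.39, against -0.03 over all genes tested. With plain library totals the medians were 0.06 and -0.36, so that all genes shifted together. Then 4 members passed, Awat1 and Agpat3 higher and Soat2 and Agpat2 lower, in place of 4 higher and 2 lower. Because the genes were chosen with earlier results known, their count and median beside those of all genes describe this list only. In TMM-scaled CPM, 5 of the 10 genes had no overlap between UPBIG and DOWN libraries, namely Soat1, Soat2, Awat1, Agpat3 and Lpin2. This held for 21.4 percent of all genes tested. With plain library totals Soat1 and Lpin2 did overlap, and Agpat2 did not.

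Fewer members differed in the other comparisons. Awat1 alone passed between UPBIG and UPSMALL, higher in UPBIG, where 5.70 percent of all genes passed, 3.22 percent higher and 2.49 percent lower. With plain library totals the split was 189 higher and 1433 lower, against 406 and 314. Awat1 and Agpat3 did not overlap between these groups in TMM-scaled CPM, as was the case for 11.8 percent of all genes. With plain library totals Agpat3 did overlap between them. In the reported edgeR fit no member passed between UPSMALL and DOWN. There 1.14 percent of all genes passed, 0.594 percent higher and 0.547 percent lower (61 and 96 genes with plain library totals, against 75 and 69). Of the members, 3 had an unadjusted p under 0.05, limma-voom also called 0 and DESeq2 called 1, Agpat3. Some alternative edgeR fits called Agpat3 as well, as given below. Agpat3 was also the 1 member whose UPSMALL and DOWN libraries did not overlap, against 8.25 percent of all genes. By edgeR's test of any difference among the 3 groups, Awat1, Agpat3, Soat1 and Soat2 passed, with adjusted p of 8.5e-07, 9.7e-04, 0.00904 and 0.0255, against 13.8 percent of all genes. Agpat2 and Lpin1 missed the threshold in that joint test, with adjusted p of 0.0584 and 0.0857. The comparisons share their libraries in pairs and are not independent of each other.

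**Figure D1:**
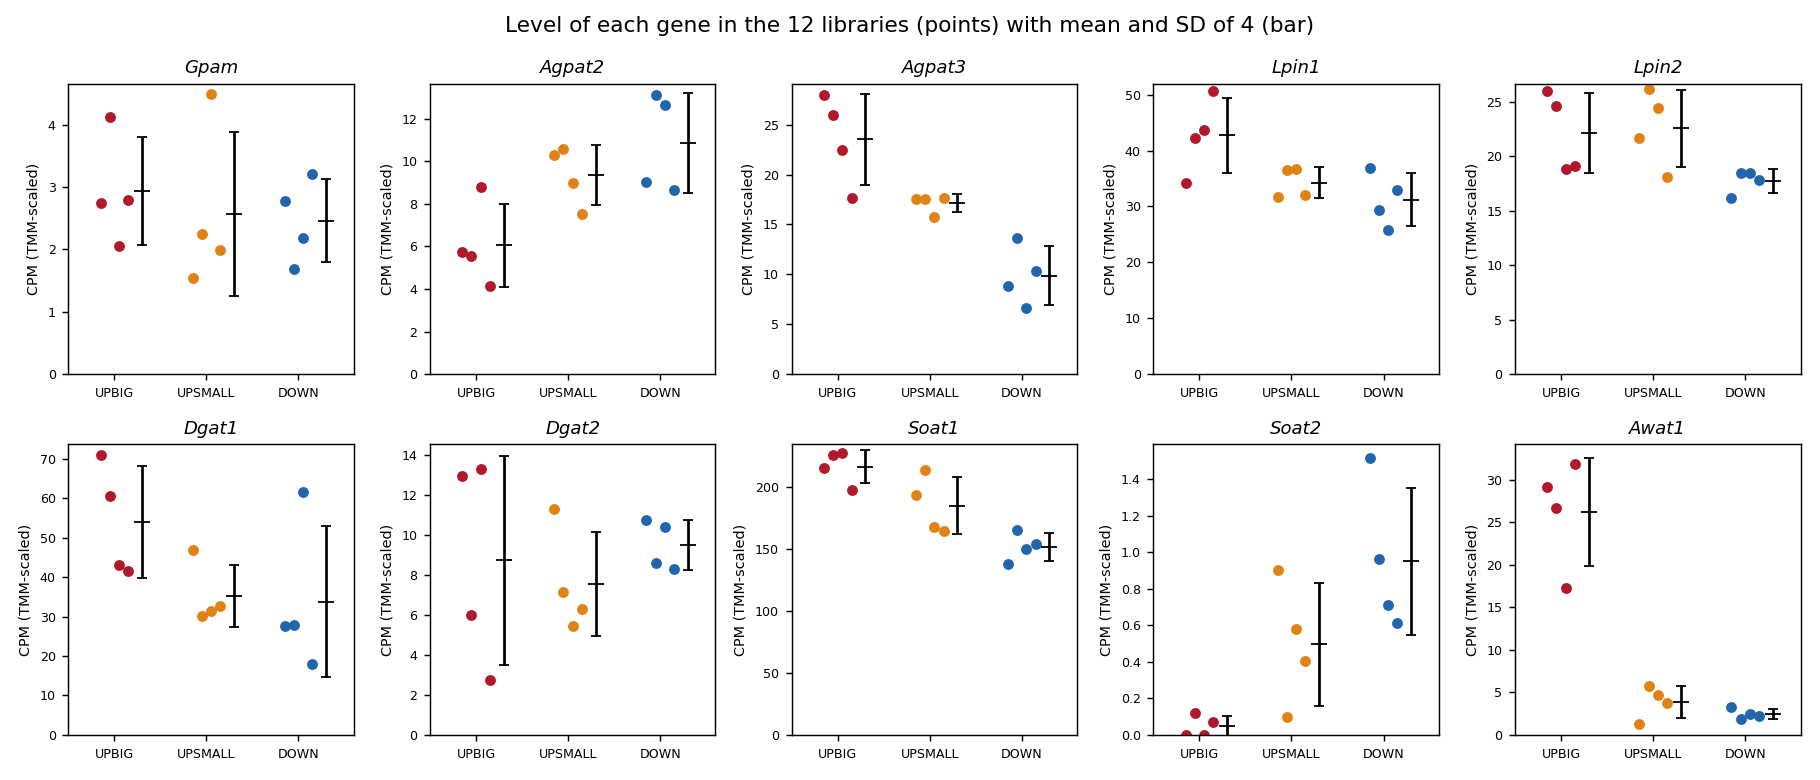
Level of each gene in CPM (linear axis from 0) in the 12 libraries, with a point per library and a bar for the mean and SD of 4 libraries in UPBIG, UPSMALL and DOWN; the lower end of the Soat2 bar in UPBIG is clipped at 0. The 4 UPBIG points for Awat1 lie at 17.3 to 31.9 CPM, above the 5.70 CPM of the highest library of the other groups, and the Soat2 points in UPBIG lie at or near 0.

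Awat1 is an acyl-CoA wax alcohol acyltransferase of the Dgat2 enzyme family and is known from the sebaceous glands of the skin. The gene, ENSMUSG00000015665, lies on the X chromosome at chrX:100572251-100578205 of mm10, plus strand, and no other annotated gene overlaps it. The 250 bases before its RefSeq start (chrX:100571997-100572246, plus strand, build GRCm38.p6) are shown because Awat1 had the clearest change of the set. They are printed with those of Soat1 (chr1:156474329-156474578, minus strand), which also rose in UPBIG, and Agpat2 (chr2:26604418-26604667, minus strand), which fell; capitals mark each CpG pair.
Awat1: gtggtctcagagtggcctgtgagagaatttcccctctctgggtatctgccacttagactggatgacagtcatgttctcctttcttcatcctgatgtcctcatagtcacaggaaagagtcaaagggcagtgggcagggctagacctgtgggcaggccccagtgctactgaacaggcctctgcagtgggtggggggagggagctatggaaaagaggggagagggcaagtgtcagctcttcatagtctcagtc
Soat1: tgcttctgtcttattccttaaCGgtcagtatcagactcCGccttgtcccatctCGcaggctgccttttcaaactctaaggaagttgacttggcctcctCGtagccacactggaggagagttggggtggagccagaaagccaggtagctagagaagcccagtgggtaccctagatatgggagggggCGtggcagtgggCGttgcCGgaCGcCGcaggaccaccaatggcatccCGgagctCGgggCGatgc
Agpat2: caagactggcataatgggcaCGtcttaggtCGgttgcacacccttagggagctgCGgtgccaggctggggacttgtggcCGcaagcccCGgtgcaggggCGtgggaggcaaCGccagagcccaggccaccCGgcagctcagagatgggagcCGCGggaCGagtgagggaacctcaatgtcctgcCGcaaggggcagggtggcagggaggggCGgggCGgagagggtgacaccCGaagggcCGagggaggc
The Awat1 window holds 0 CpG pairs, the Soat1 window 12 and the Agpat2 window 16. The windows of Lpin1 and Agpat3, which also rose in UPBIG and are not printed, hold 1 and 14. Of 32851 RefSeq windows of the same length, 7.87% hold none, 37.8% hold at least 10, and the median is 6. CpG pairs were counted after the sequences had been seen. For 7 of the 10 genes, with 10 windows in all, a sequence was at hand, and 5 motifs were searched in them on both strands: the sterol regulatory element cores TCACCCCAC (in 0.496% of all windows) and TCACNCCAC (1.05%, which includes the first), the E-box CACGTG (6.02%), and 2 direct repeats of AGGTCA, the DR4 element of liver X receptors (0.0152%) and the DR1 element of PPARs (0.0335%). The E-box matched in 1 window of Lpin2, and no other motif matched in a window of these genes; a match is only a match of letters.

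In the UPBIG libraries Awat1 stood at 29.1, 26.7, 17.3 and 31.9 CPM, in UPSMALL at 1.27, 5.70, 4.72 and 3.75 CPM, and in DOWN at 3.25, 1.83, 2.43 and 2.17 CPM. Every UPBIG library lay above every other library, while UPSMALL and DOWN overlapped. The group means were 26.3 ± 6.35, 3.86 ± 1.90 and 2.42 ± 0.604 CPM (SD, n = 4 libraries each). On the log2 scale Awat1 was higher in UPBIG by 3.43 ± 0.35 (SE) against DOWN and by 2.76 ± 0.33 against UPSMALL, with edgeR adjusted p of 2.0e-06 and 3.7e-05. These were the 50th and 28th largest rises of the 12625 genes in the respective comparisons. UPSMALL and DOWN differed by 0.67 ± 0.34, with edgeR adjusted p of 0.415 and an interval of -0.04 to 1.38.

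The annotated genes beside Awat1 on the X chromosome did not follow its counts. Dgat2l6, another member of the same acyltransferase family and its upstream neighbour, had 6, 3 and 8 counts summed over the UPBIG, UPSMALL and DOWN libraries, against 1677, 346 and 207 for Awat1. Downstream, P2ry4, Arr3 and the pseudogene Gm6175 had no count in any library, Pdzd11 had 2808, 3208 and 3145 counts, and Kif4 had 83, 147 and 95. Awat2, the paralogue that also makes wax esters, had 4, 5 and 0 counts. Leaving out each library in turn kept the log2 difference of Awat1 between UPBIG and DOWN at 3.33 to 3.62. Of the neutrophil list, S100a8 and Cxcr2 were also higher in UPBIG than in DOWN by mean CPM, and S100a9, Csf3r and Mmp8 were lower. The airway list summed to 26.1 to 235 CPM in UPBIG, with a median of 51.7 CPM, and overlapped the other groups. By mean CPM 7 airway markers were higher and 3 lower in UPBIG than in DOWN. The part of either list in the Awat1 difference was not tested. In bulk libraries such as these, fewer cells that express a gene and less RNA per cell cannot be told apart.

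Sterol esterification showed a divided pair. Soat1, also called ACAT1, is the main cholesterol acyltransferase of macrophages, and Soat2, or ACAT2, is known from intestine and liver. Soat1 (ENSMUSG00000026600, chr1:156424525-156474331, minus strand, mm10) had the highest mean level of the 10 genes per kilobase of exon in each group, and it rose modestly in UPBIG, whereas Soat2 (ENSMUSG00000023045, chr15:102150526-102163469, plus strand) had 3 counts there in all.

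Soat1 stood at 215, 226, 227 and 198 CPM in UPBIG, 193, 213, 168 and 165 CPM in UPSMALL, and 138, 166, 150 and 154 CPM in DOWN. In these TMM-scaled values UPBIG and DOWN did not overlap, and UPSMALL spanned the gap between them, overlapping both. The log2 difference between UPBIG and DOWN was 0.51 ± 0.11 (SE), with edgeR adjusted p of 0.00264. With plain library totals it was 0.19, with adjusted p of 0.213, beside the median of -0.36 over all genes under that scaling. UPBIG, then at 170 to 202 CPM, overlapped DOWN, at 147 to 182 CPM. Against UPSMALL, UPBIG was higher by 0.23 ± 0.11 (edgeR adjusted p of 0.274), a difference that turned to -0.04 with plain library totals. UPSMALL and DOWN differed by 0.28 ± 0.11 (edgeR adjusted p of 0.252).

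Soat2 gave 0, 2, 0 and 1 counts in the UPBIG libraries, 17, 2, 13 and 11 in UPSMALL and 35, 20, 14 and 13 in DOWN. Each DOWN library lay above each UPBIG library, and UPSMALL replicate 2, with 2 counts, lay among the UPBIG libraries in CPM. From the sums of 82 and 3 counts, the level in DOWN was 20.8 times that in UPBIG after scaling for depth, with an exact 95% interval of 6.87 to 103 that covers counting error only. UPSMALL, with 43 counts, was 10.4 times UPBIG (3.34 to 52.6), and DOWN was 1.99 times UPSMALL (1.36 to 2.95). The replicated test called Soat2 lower in UPBIG than in DOWN, by a fitted log2 difference of -4.18 ± 1.03 (SE) with edgeR adjusted p of 0.00765; at so few counts that value depends on the prior count of the fit. Between UPBIG and UPSMALL the difference of -3.24 ± 1.03 missed the threshold, with edgeR adjusted p of 0.0760, and passed by DESeq2 with adjusted p of 0.0465 and with plain library totals with 0.0323. Between UPSMALL and DOWN it was -0.94 ± 0.80, with edgeR adjusted p of 0.685. The summed dendritic cell and monocyte markers were higher in DOWN in the same order of groups, from the values given above; 8 of the 10 T and NK cell markers were also higher in DOWN than in UPBIG. The part of these cells in the Soat2 difference was not tested.

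The last step of triglyceride synthesis showed no difference that passed the test, and the libraries within groups spread widely. Dgat1 (ENSMUSG00000022555, chr15:76502015-76511953, minus strand) encodes a diacylglycerol acyltransferase of the endoplasmic reticulum that is related in sequence to the Soat enzymes. Its level was 70.9, 60.6, 43.1 and 41.5 CPM in UPBIG, 46.9, 30.1, 31.3 and 32.6 CPM in UPSMALL, and 27.6, 27.8, 61.7 and 17.9 CPM in DOWN. Only DOWN replicate 3 kept UPBIG and DOWN from being apart: the other 3 DOWN libraries lay below every UPBIG library. The log2 difference between UPBIG and DOWN was 0.68 ± 0.33 (SE), with edgeR adjusted p of 0.200 and an interval of -0.05 to 1.41. Without DOWN replicate 3 it was 1.15, with adjusted p of 0.00174; nothing in the labels sets that library apart. UPBIG against UPSMALL gave 0.62 ± 0.33 (edgeR adjusted p of 0.373) and UPSMALL against DOWN 0.06 ± 0.33 (edgeR adjusted p of 0.964).

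Dgat2 (ENSMUSG00000030747, chr7:99153658-99182719, minus strand) encodes the unrelated second diacylglycerol acyltransferase, which acts on growing lipid droplets. It stood at 13.0, 5.98, 13.3 and 2.73 CPM in UPBIG, 11.3, 7.15, 5.47 and 6.32 CPM in UPSMALL, and 10.8, 8.62, 10.4 and 8.30 CPM in DOWN. The UPBIG libraries both exceeded and undercut all the DOWN libraries. The log2 difference between UPBIG and DOWN was -0.12 ± 0.37 (SE), with edgeR adjusted p of 0.874 and an interval of -0.90 to 0.66, wide enough to hold a substantial change in either direction. Against UPSMALL it was 0.22 ± 0.37 (edgeR adjusted p of 0.836), and between UPSMALL and DOWN it was -0.34 ± 0.37 (edgeR adjusted p of 0.775).

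Of the acyltransferases that make phosphatidate, the 2 among the 10 genes went in opposite directions between UPBIG and DOWN. The 4 others on the wider pathway list below, Agpat1, Agpat4, Agpat5 and Lclat1, passed in no comparison in the reported edgeR fit. Agpat4 averaged 28.7, 30.9 and 26.6 CPM in UPBIG, UPSMALL and DOWN, and Agpat5 averaged 35.3, 29.2 and 32.2 CPM. Agpat2 is the form whose loss causes congenital lipodystrophy, a lack of fat tissue, and Agpat3 is a form known to favour polyunsaturated fatty acids. Agpat3 (ENSMUSG00000001211, chr10:78269178-78352489, minus strand) stood at 28.0, 26.0, 22.4 and 17.7 CPM in UPBIG, 17.5, 17.5, 15.8 and 17.6 CPM in UPSMALL, and 8.87, 13.7, 6.59 and 10.3 CPM in DOWN. The 3 groups did not overlap at all for Agpat3, although the lowest UPBIG library was only just above the highest UPSMALL library. The log2 difference between UPBIG and DOWN was 1.25 ± 0.20 (SE), with edgeR adjusted p of 2.5e-04, and 0.92 with plain library totals. Between UPSMALL and DOWN it was 0.79 ± 0.20, with edgeR adjusted p of 0.0659. That difference passed by DESeq2 (adjusted p of 0.0134), and by edgeR with no filter on low counts (0.00458) and without DOWN replicate 2 (0.0266). It also passed by edgeR with a block on replicate number (0.0293), although the labels do not say that the numbers pair the libraries. Between UPBIG and UPSMALL it was 0.46 ± 0.20, with edgeR adjusted p of 0.223.

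Agpat2 (ENSMUSG00000026922, chr2:26593057-26604417, minus strand) stood at 5.73, 5.56, 8.79 and 4.16 CPM in UPBIG, 10.3, 10.6, 8.99 and 7.53 CPM in UPSMALL, and 9.00, 13.1, 12.6 and 8.63 CPM in DOWN. In TMM-scaled CPM UPBIG replicate 3 reached into the range of the other groups, and the other 3 UPBIG libraries lay below all of them. Agpat2 fell by 0.83 ± 0.24 (SE) on the log2 scale in UPBIG against DOWN, with edgeR adjusted p of 0.0213. That call was lost without DOWN replicate 2 (adjusted p of 0.0806), DOWN replicate 3 (0.0706), UPBIG replicate 2 (0.0601) or UPBIG replicate 4 (0.0730). Against UPSMALL it was -0.62 ± 0.24 with edgeR adjusted p of 0.161, which became 0.0202 with plain library totals, and UPSMALL against DOWN gave -0.21 ± 0.24 with edgeR adjusted p of 0.778. Its exons share 64 bases with Egfl7 on the opposite strand, which averaged at most 0.138 CPM in any group.

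The ratio of Agpat3 to Agpat2 counts within a library, which needs no scaling between libraries, separated the 3 groups. It was 4.09 ± 1.06 (SD, n = 4) in UPBIG with a range of 2.55 to 4.88, 1.86 ± 0.32 in UPSMALL with a range of 1.66 to 2.34, and 0.937 ± 0.291 in DOWN with a range of 0.522 to 1.20. Agpat2 had fewer counts than Agpat3 in every UPBIG and UPSMALL library. Per kilobase of exon Agpat2 was the higher of the pair in DOWN, at 5.09 ± 1.10 CPM per kilobase against 1.27 ± 0.381, and close to Agpat3 in UPBIG, at 2.85 ± 0.916 against 3.02 ± 0.581. The Soat1 to Soat2 ratio was 1887 and 2903 in the 2 UPBIG libraries with a Soat2 count, 214 to 2136 in UPSMALL and 91.2 to 251 in DOWN, so UPBIG and DOWN were apart and UPSMALL overlapped both. The Awat1 to Dgat2 ratio, within 1 enzyme family, was 1.30 to 11.7 in UPBIG, 0.113 to 0.862 in UPSMALL and 0.212 to 0.301 in DOWN, so UPBIG was apart from the other groups. The Dgat1 to Dgat2 count ratio was 8.51 ± 5.30 in UPBIG, 4.81 ± 0.767 in UPSMALL and 3.47 ± 1.70 in DOWN, with overlapping ranges. The Lpin1 to Lpin2 ratio was 2.00 ± 0.598, 1.53 ± 0.165 and 1.78 ± 0.386, also overlapping.

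**Figure D2:**
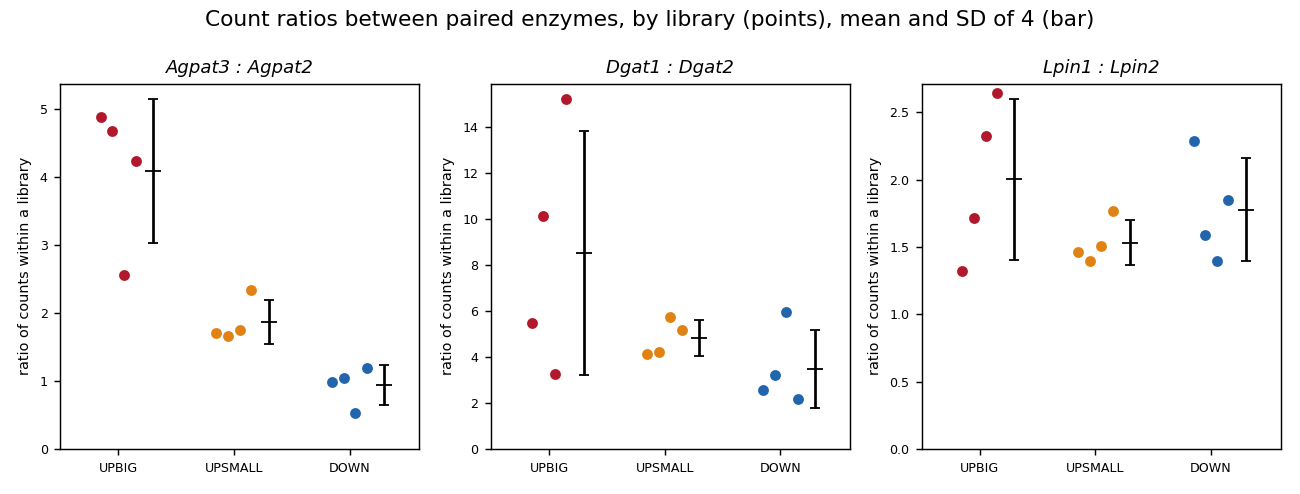
Ratio of counts within each library (linear axes from 0) for Agpat3 to Agpat2, Dgat1 to Dgat2 and Lpin1 to Lpin2, with a point per library and a bar for the mean and SD of 4 libraries. The Agpat3 to Agpat2 ratio falls from 2.55 to 4.88 in UPBIG to 0.522 to 1.20 in DOWN with no overlap, whereas the Dgat1 to Dgat2 and Lpin1 to Lpin2 ratios overlap between the groups.

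Lpin1 and Lpin2 encode phosphatidate phosphatases that leave the cytosol for the membrane when fat synthesis is called for; Lpin1 is lost in the fatty liver dystrophy mouse, and LPIN2 is mutated in Majeed syndrome, an inflammatory disease. Lpin1 (ENSMUSG00000020593, chr12:16535669-16610966, minus strand) stood at 34.3, 42.2, 43.8 and 50.7 CPM in UPBIG, 31.7, 36.5, 36.7 and 32.0 CPM in UPSMALL, and 36.9, 29.3, 25.8 and 32.9 CPM in DOWN. The ranges overlapped through UPBIG replicate 1 and DOWN replicate 1. Lpin1 rose in UPBIG against DOWN by 0.45 ± 0.14 (SE) on the log2 scale, with edgeR adjusted p of 0.0361. With plain library totals the difference was 0.13, with adjusted p of 0.564, and the call was lost when DOWN replicate 2 or 3 or UPBIG replicate 2, 3 or 4 was left out, with adjusted p of 0.0655 to 0.123. The differences between UPBIG and UPSMALL, 0.32 ± 0.14, and between UPSMALL and DOWN, 0.13 ± 0.14, had edgeR adjusted p of 0.244 and 0.772.

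Lpin2 (ENSMUSG00000024052, chr17:71182560-71249817, plus strand) stood at 26.0, 24.6, 18.8 and 19.2 CPM in UPBIG, 21.7, 26.2, 24.4 and 18.1 CPM in UPSMALL, and 16.1, 18.5, 18.5 and 17.8 CPM in DOWN. In TMM-scaled CPM all UPBIG libraries lay above all DOWN libraries, by a margin of 18.8 against 18.5 CPM at the closest. With plain library totals these groups overlapped, at 16.3 to 22.4 CPM in UPBIG and 17.2 to 20.7 in DOWN. Both means were then 19.3 CPM. With TMM scaling the log2 difference was 0.32 ± 0.16 (SE), which did not pass (edgeR adjusted p of 0.190, interval of -0.01 to 0.66). UPSMALL against DOWN gave 0.35 ± 0.16 (edgeR adjusted p of 0.364) and UPBIG against UPSMALL -0.03 ± 0.16 (edgeR adjusted p of 0.958).

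Gpam (ENSMUSG00000024978, chr19:55067268-55127238, minus strand) encodes the mitochondrial glycerol-3-phosphate acyltransferase, which opens the pathway. It was low, at 2.74, 4.12, 2.05 and 2.80 CPM in UPBIG, 1.54, 2.25, 4.49 and 1.98 CPM in UPSMALL, and 2.77, 1.69, 2.18 and 3.21 CPM in DOWN. The groups overlapped throughout. The log2 differences were 0.25 ± 0.40 (SE) between UPBIG and DOWN, 0.19 ± 0.40 between UPBIG and UPSMALL and 0.06 ± 0.40 between UPSMALL and DOWN, with edgeR adjusted p of 0.740, 0.871 and 0.969. The interval of the first, -0.59 to 1.09, leaves room for a change of either sign. Other acyltransferases of this step had higher mean levels than Gpam. Gpat3 averaged 11.2, 10.7 and 10.8 CPM in UPBIG, UPSMALL and DOWN, and Gpat4 averaged 21.8, 20.1 and 17.9 CPM. Neither passed in any comparison in the reported edgeR fit.

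**Figure D3:**
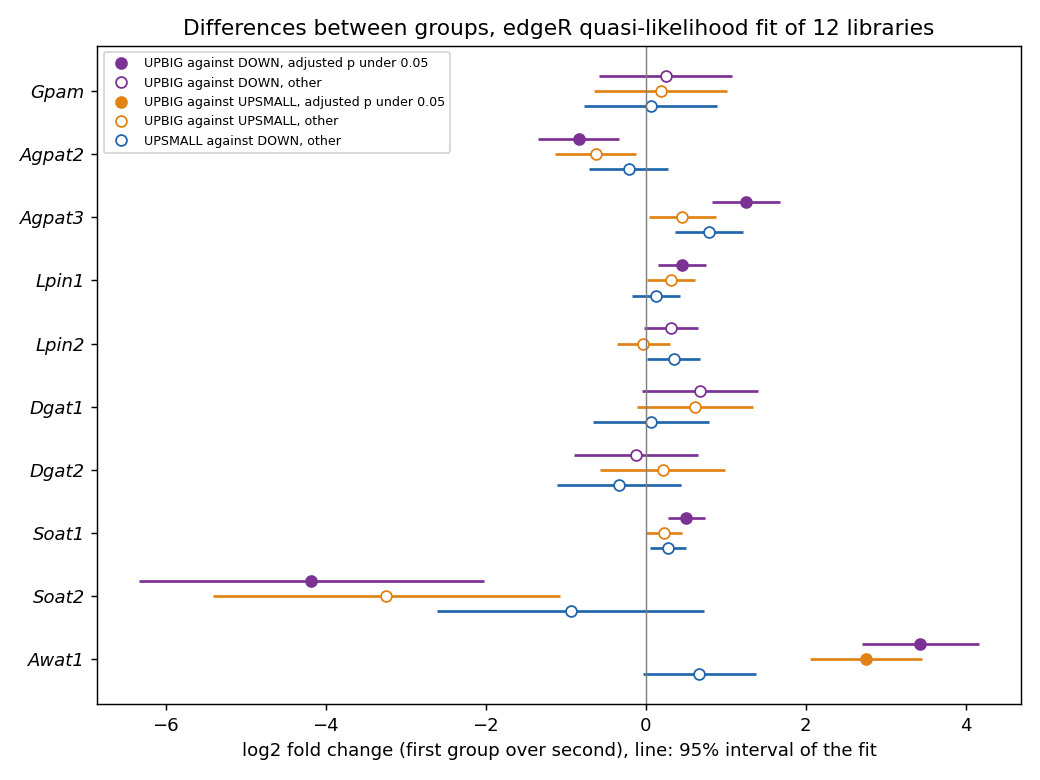
Log2 fold change of each gene in the 3 comparisons (points) with the 95% interval of the edgeR fit (lines); filled points have an adjusted p under 0.05. Between UPBIG and DOWN 6 genes have filled points, from 3.43 for Awat1 to -4.18 for Soat2, and no point is filled between UPSMALL and DOWN.

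Levels were also compared between genes, per kilobase of annotated exon. In UPBIG, Soat1 at 22.1 ± 1.37 CPM per kilobase, Awat1 at 18.9 ± 4.56 and Dgat1 at 17.7 ± 4.65 overlapped at the top of the order, and all the libraries of these genes lay above those of Lpin1, next at 4.42 ± 0.699. In UPSMALL, Soat1 at 18.9 ± 2.35 led, then Dgat1 at 11.5 ± 2.56, without overlap between them, and Awat1 was in place 5 at 2.78 ± 1.37. In DOWN, Soat1 at 15.5 ± 1.16 and Dgat1 at 11.0 ± 6.27 overlapped, Agpat2 was in place 3, and Awat1 was in place 6 at 1.74 ± 0.435. Awat1 was thus in the middle of the order in UPSMALL and DOWN and near the top in UPBIG, while Soat1 and Dgat1 were among the leading 3 genes in each group. Lpin2, Gpam and Soat2 took the last 3 places in UPBIG and UPSMALL, and Agpat3, Soat2 and Gpam did so in DOWN. These orders depend on the length used, the union of all annotated exons of a gene. By CPM alone Awat1, at 26.3 in UPBIG, was below Soat1 at 216, Dgat1 at 54.0 and Lpin1 at 42.7.

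The other enzymes and factors of these pathways, a fixed list of 40 genes, gave no common direction. Of these, 38 had counts and 30 were tested. Between UPBIG and DOWN, 3 rose and 4 fell (2 and 5 with plain library totals), and the median log2 fold change of the 30 was 0.00, against -0.03 over all genes. Between UPBIG and UPSMALL, 1 rose and 1 fell (1 and 5 with plain library totals), and between UPSMALL and DOWN 1 rose. The shares were 7, 2 and 1 of 30 genes, beside the 17.5, 5.70 and 1.14 percent of all genes given above.

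Plpp3, a phosphatase of the cell surface that removes the phosphate from lysophosphatidate and related lipids, rose in all 3 comparisons. It ranged from 36.8 to 51.1 CPM in UPBIG, 9.95 to 18.2 in UPSMALL and 4.05 to 8.32 in DOWN, with no overlap among the groups. The log2 differences were 2.79 ± 0.23 (SE) between UPBIG and DOWN, 1.74 ± 0.22 between UPBIG and UPSMALL and 1.05 ± 0.23 between UPSMALL and DOWN, with edgeR adjusted p of 1.1e-07, 4.9e-05 and 0.0268. The last call was lost when DOWN replicate 1 or 2 or UPSMALL replicate 1 or 2 was left out, with adjusted p of 0.0504 to 0.107. Gpd1, the cytosolic dehydrogenase that makes glycerol-3-phosphate, the starting substrate of Gpam, had 143 counts summed over UPBIG, 55 over UPSMALL and 16 over DOWN. Gpd1 rose by 3.50 ± 0.88 (SE) on the log2 scale between UPBIG and DOWN, with edgeR adjusted p of 0.00870; the ratio from summed counts was 11.7, with an exact 95% interval of 6.99 to 21.1 for counting error. Without DOWN replicate 2, which held most of the DOWN counts, the fitted log2 difference was 5.41 with adjusted p of 0.000908. Acsl1, an acyl-CoA synthetase that activates fatty acids, rose by 0.57 ± 0.15 (SE) between UPBIG and DOWN (edgeR adjusted p of 0.0105), but by 0.24 with plain library totals, with adjusted p of 0.284.

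The 4 genes that fell in UPBIG against DOWN were Dgkg, Dgka, Acsl3 and Far1. Dgkg and Dgka are diacylglycerol kinases, which turn diacylglycerol back into phosphatidate, the reverse of the lipin reaction. Dgkg ranged from 0.703 to 1.16 CPM in UPBIG, 2.07 to 5.12 in UPSMALL and 3.03 to 4.48 in DOWN, and it was lower in UPBIG by a log2 difference of -2.05 ± 0.39 (SE) against DOWN and -1.71 ± 0.39 against UPSMALL, with edgeR adjusted p of 0.00114 and 0.0117. The second call was lost without UPSMALL replicate 3, the highest of its group, with a difference of -1.33 and adjusted p of 0.0690. Dgka ranged from 3.49 to 7.09 CPM in UPBIG and 9.63 to 12.3 in DOWN, a log2 difference of -0.90 ± 0.23 (SE) with edgeR adjusted p of 0.00909. Acsl3, an acyl-CoA synthetase of nascent lipid droplets, and Far1, which makes the fatty alcohols that wax synthesis uses, had log2 differences of -1.24 ± 0.40 and -0.40 ± 0.13 (SE), with edgeR adjusted p of 0.0378 and 0.0364. Both calls were fragile. Acsl3 was lost without any 1 of the 4 DOWN libraries or without UPBIG replicate 1, 2 or 4, with adjusted p of 0.0530 to 0.102. It was also lost in an edgeR fit of only the 8 libraries compared (adjusted p of 0.0501). Far1 was lost without any 1 of the 8 libraries compared, with adjusted p of 0.0516 to 0.112, and by edgeR with no filter on low counts (0.0578).

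**Figure D4:**
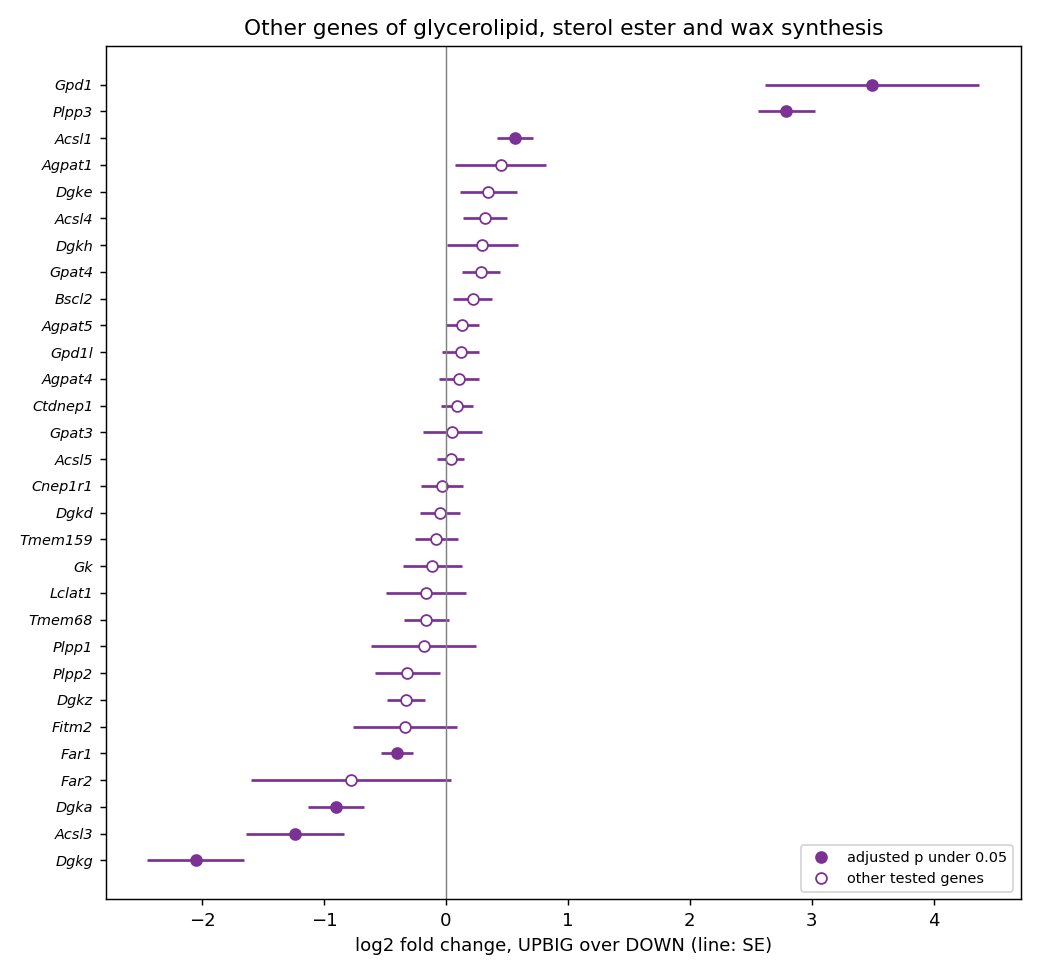
Log2 fold change between UPBIG and DOWN (points) with SE (lines) for the 30 tested genes of the pathway list; filled points have an adjusted p under 0.05. Gpd1 at 3.50 and Plpp3 at 2.79 lie far to the right, Dgkg at -2.05 far to the left, and the median of the 30 is 0.00.

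A search by likeness named the genes whose pattern over the 12 libraries was closest to each member that passed the joint test, by Pearson correlation of log2 CPM among 6789 or 6790 genes of at least moderate level (an average log2 CPM of at least 3). The libraries share 3 groups, so such values mainly describe the order of the groups. For Awat1 these were Rnf7 (r = 0.960), Me2 (0.958) and Hadhb (0.956); for Soat1 they were Mfge8 (0.935), Ehd4 (0.933) and Itgax (0.925). For Agpat3 they were Galns (0.965), Plxdc1 (0.948) and Grn (0.943), and for Soat2 they were Fes (0.937), Rgl2 (0.936) and Carhsp1 (0.935). None of the 12 is on the list of pathway genes. Me2, the mitochondrial malic enzyme, averaged 60.0, 33.8 and 27.7 CPM in UPBIG, UPSMALL and DOWN. Hadhb, a subunit of the mitochondrial enzyme of fatty acid oxidation, averaged 113, 59.4 and 52.3 CPM. For both genes the fold difference between UPBIG and DOWN was smaller than that of Awat1. Mfge8, a secreted protein that binds dying cells, averaged 429, 186 and 87.7 CPM, a wider range than that of Soat1.

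**Figure D5:**
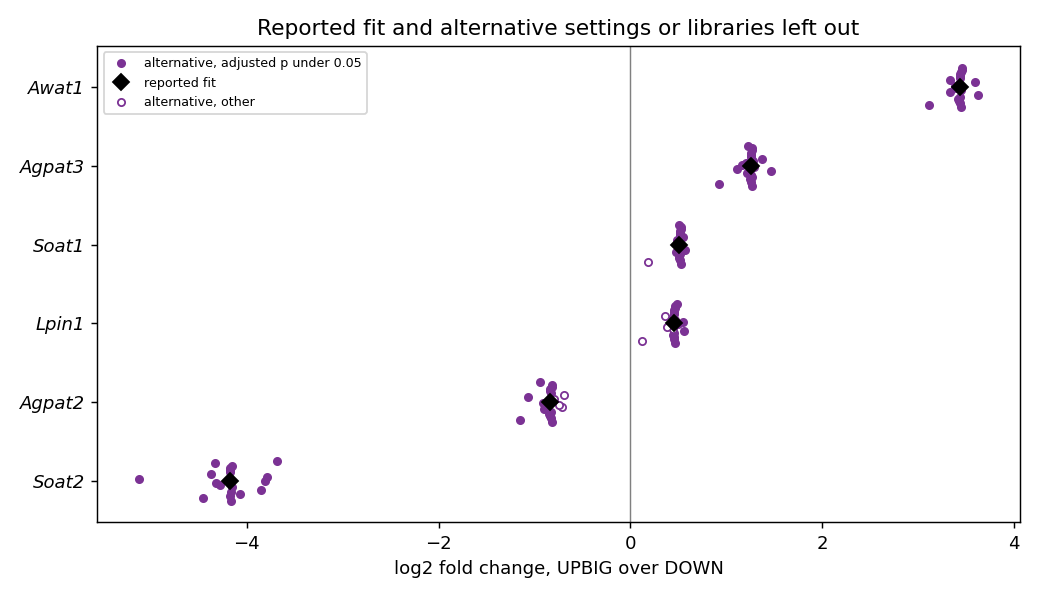
Log2 fold change between UPBIG and DOWN for the 6 genes that passed, in the reported fit (diamond) and under each alternative setting or with a library left out (circles, filled where the adjusted p is under 0.05; vertical spread is only to separate points). Awat1 and Agpat3 stay filled throughout, Soat2 stays filled at -5.12 to -3.69 in the fits that tested it, and open circles appear for Soat1, Lpin1 and Agpat2.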

How the data were processed

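Expected counts per gene and library were made by the authors with STAR and RSEM on mm10, per the submitters' processing notes; for versions, annotation and strand setting: not given in the sources used here. Reads of antisense genes therefore cannot be told apart. Of 26855 identifiers, 26775 matched a symbol in GENCODE (GRCm38), which also gave coordinates and exon lengths. Counts were rounded (13.8% of values were not whole) and filtered with filterByExpr. All 12 libraries were fitted in edgeR 4.0.16 (R 4.3.3; TMM, robust quasi-likelihood, 9 residual degrees of freedom, no block). SE is the log2 fold change over the square root of F. Alternatives were DESeq2 1.42.0, limma-voom (limma 3.58.1), DESeq2-style size factors, plain library totals, no filter, a filter of 5 CPM in 4 libraries, the replicate block, only the 8 libraries compared and each library left out. The method was tested on simulated data. Replicates differed beyond sampling noise (chi-square per degree of freedom of 18.24 to 123.1). Promoters come from RefSeq (GRCm38.p6). The members and lists were chosen with earlier results of these data known. Named were all members, the called pathway genes (at most 8 per comparison), and for each member passing the joint test the 3 genes of highest correlation (prior count 2; no ribosomal, mitochondrial or unnamed genes). Dgat2l6, P2ry4, Arr3, Gm6175, Pdzd11, Kif4, Awat2 and Egfl7 were named after their values were seen. Intervals on counts cover counting error only, since the libraries carry no molecular identifiers and PCR copies are counted.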

Additional observations from a re-analysis of the deposited data

Results flagged for a closer look

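In 7 of 65 groups of 4 libraries examined, 1 library stood apart from the other 3, by Dixon's test of the gap to the nearest library; chance flags about 1 in 20 groups. Dgat1 was 46.9 CPM in UPSMALL replicate 1 against 30.1 to 32.6 CPM in the other UPSMALL libraries. Agpat3 was 15.8 CPM in UPSMALL replicate 3 against 17.5 to 17.6 CPM, a small gap in a tight group. The Agpat3 to Agpat2 count ratio was 2.34 in UPSMALL replicate 4 against 1.66 to 1.76, and the Soat1 to Soat2 count ratio was 2136 in UPSMALL replicate 2 against 214 to 407, resting on 2 Soat2 counts. Among the other pathway genes, Acsl1 was 33.2 CPM in UPBIG replicate 4 against 24.9 to 26.2 CPM, Gpd1 was 0.626 CPM in DOWN replicate 2 against 0 to 0.0866 CPM, and Dgkg was 5.12 CPM in UPSMALL replicate 3 against 2.07 to 2.50 CPM. Different libraries stood apart for different genes within UPSMALL.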

How the results depend on the processing

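Of 789 single-gene values under alternatives, 726 kept their direction and side of the threshold, 35 lost and 8 gained the call, and 20 changed sign. With plain library totals, 3755, 1622 and 3021 genes passed for UPBIG against DOWN, UPBIG against UPSMALL and the joint test (2210, 720 and 1736 with TMM), as did 3 members and 6 pathway genes between UPBIG and UPSMALL and 8 pathway genes in the joint test. Under that scaling Gpam turned to -0.074 between UPBIG and DOWN and -0.080 between UPBIG and UPSMALL, where Dgat2 turned to -0.056 and Soat1 to -0.042; limma-voom gave Dgat2 -0.12 there, and DESeq2 called 2 members. Between UPSMALL and DOWN, where 144 genes passed, 460 did with no filter, 275 with the replicate block, 393 with DESeq2 and 226 with limma-voom; 1 member, Agpat3, passed with no filter, the block (adjusted p of 0.0293) or DESeq2, and 0 pathway genes with only the 8 libraries compared. The stricter filter, which tests fewer genes and not Soat2, left 4, 1 and 3 pathway genes (UPBIG against DOWN, UPBIG against UPSMALL, joint). The cause of the other shifts was not tested. Same-numbered libraries deviated together weakly and unevenly. Their r was above 0 in 10 of 12 pairs and over 0.1 in 5, from -0.029 to 0.154 (mean 0.079), against 7 of 36 different-numbered pairs above 0 (mean -0.026, up to 0.115). In 18 of 24 cases a library correlated best with its own number in another group. This is a hint from the data and not from the labels, and since not every pair passed 0.1 the numbers were not taken as pairing.

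Leaving out each library in turn gave 58 to 179 genes and 0 to 1 member between UPSMALL and DOWN. Pathway genes ranged from 5 to 7, 1 to 3 and 0 to 1 in the 3 comparisons and 2 to 6 in the joint test. The genes that changed sign were Dgat2 (-0.39 to 0.18 between UPBIG and DOWN, -0.060 to 0.51 between UPBIG and UPSMALL), Gpam (-0.022 to 0.60 between UPBIG and UPSMALL, -0.35 to 0.24 between UPSMALL and DOWN), Lpin2 (-0.12 to 0.050 between UPBIG and UPSMALL) and Dgat1 (-0.13 to 0.53 between UPSMALL and DOWN). These differences did not pass the test in any of those fits. Depth limits Soat2, whose 3 counts in UPBIG bound its ratio only loosely.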

Other observations

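Lcat, which esterifies cholesterol on lipoproteins outside the cell, was too low to be tested. It had 3 counts over the UPBIG libraries, 14 over UPSMALL and 54 over DOWN, so that DOWN was 13.7 times UPBIG after scaling for depth, with an exact 95% interval of 4.44 to 68.5 for counting error, and 4.03 times UPSMALL (2.21 to 7.85). UPSMALL was 3.40 times UPBIG, with an interval of 0.949 to 18.5 that includes equal levels. By summed counts the order of groups for Lcat was that of Soat2, the other low-level sterol esterifying enzyme. Far2, the second fatty alcohol reductase, averaged 0.564 ± 0.326 CPM (SD, n = 4) in UPBIG, 0.745 ± 0.676 in UPSMALL and 0.974 ± 0.406 in DOWN, with overlapping libraries. The monoacylglycerol acyltransferase Mogat2 and the third lipin, Lpin3, were nearly without counts in every group. Summed over the UPBIG, UPSMALL and DOWN libraries, Mogat2 had 0, 3 and 0 counts and Lpin3 had 0, 0 and 1.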
